A study of Mus musculus with 48 samples.

Results

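Mural cells of brain vessels are recognized by a small set of genes, and 10 such genes of the 24973 in the deposited table were followed through 4 cell types of the mouse neurovascular unit (NVU) after ischemic stroke. They were taken by gene symbol: Rgs5, Kcnj8, Abcc9, Anpep, Vtn, Higd1b and Cspg4, which mark pericytes, and Des, Acta2 and Tagln, which encode parts of the cytoskeleton and contractile apparatus. All 10 symbols had a row in the table.

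The data came from adult (12–15 weeks) male wild-type C57BL/6 mice with transient middle cerebral artery occlusion (tMCAO), in which a filament blocked the right middle cerebral artery for 1 h and 23 h of reperfusion followed. Pericytes (PC), endothelial cells (EC), microglia (MG) and astrocytes (AC) were sorted by flow cytometry from the ischemic (ipsilateral) and the opposite (contralateral) hemisphere of the same animals and sequenced as bulk RNA. Each of the 8 groups held 6 replicates, and each replicate was a pool of 3–4 brains, so that 48 libraries were available. The control was the contralateral hemisphere of animals that had a stroke, not a sham operation, and only mice scoring at least 8 on a 14-point neurological scale were kept. Pericytes were gated as NG2-positive and PDGFRβ-positive cells free of CD45, ACSA2 and VE-cadherin, while astrocytes and endothelial cells had to lack NG2 and PDGFRβ. NG2 is the product of Cspg4, so the difference of Cspg4 between cell types follows the gate.

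Mural cells wrap the endothelial tube. Vascular smooth muscle cells of arterioles carry dense actin and myosin filaments and narrow the vessel, whereas capillary pericytes hold little of this apparatus, share the basement membrane with endothelial cells and help to maintain the blood-brain barrier. Both carry NG2 and PDGFRβ, so the sort gate takes in both, and in these bulk libraries a change in the number of cells of one kind and a change in RNA per cell cannot be told apart.

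For the 12 ipsilateral pericyte and microglia libraries the labels disagree: the sample titles give the opposite cell type from the column labels that the sample descriptions repeat. The column labels were followed. By the titles the same values would make 7 of the 10 genes regulated downward in pericytes and 9 upward in microglia, and 0 of 10 highest in ipsilateral pericytes. In the libraries whose column label is ipsilateral pericyte, Acta2 and Des, which only mural cells hold in quantity, were at 108085 or more and 13587 or more normalized counts. In those labelled ipsilateral microglia they were at no more than 2801 and 480. Both are among the 10 genes. Microglia markers outside them (10 genes, summed) were at 694 to 66398 in libraries labelled ipsilateral pericyte. In those labelled ipsilateral microglia they were at 235890 to 389800. Estimated reads on genes ranged from 4900000 to 17100000 per library, with 9100000 to 13600000 in the 12 pericyte libraries, and a count of 0 in a pericyte library allows up to 3 reads, which is 2.59 to 4.01 normalized counts. All values are normalized counts, that is, reads scaled to a common library size by the authors.

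The pericyte libraries were not all alike. Microglia markers (10 genes, summed) ranged from 594 to 27920 normalized counts in contralateral and from 694 to 66398 in ipsilateral pericytes, where replicates 2, 3 and 4 held 36355, 66398 and 53373 and replicates 5 and 6 held 911 and 694. Neutrophil and monocyte markers (10 genes) followed, with 9743, 43654 and 23766 in ipsilateral replicates 2, 3 and 4 against 66 and 237 in replicates 5 and 6, led by the lysozyme gene Lyz2 at up to 29912. Against the mean of the sorted cells themselves, the summed endothelial markers of pericyte libraries reached 3.32% to 12.2%, astrocyte markers 2.26% to 4.85% and microglia markers 0.115% to 21.1%. The first 2 sums rested largely on 1 gene each in contralateral pericytes. Esam made up 9815 of a mean endothelial sum of 16304, and Atp1b2, which encodes ACSA2, 9717 of a mean astrocyte sum of 12151. The lowest genes of these lists, Cdh5 and Gfap, had means of 55.83 and 37.67. Contralateral pericyte replicate 2 also held 5792 normalized counts of oligodendrocyte precursor markers (10 genes) and 1734 of neuronal markers (10 genes), above the 364 to 777 and 0 to 413 of the other 5. Fibroblast markers (9 genes) lay between 7730 and 24233 in pericytes. Ly6g, which marks neutrophils, and C1ql1, which marks oligodendrocyte precursors, were at 0 in all 6 contralateral pericyte libraries. None of the 7 marker lists had a gene regulated with ischemia in pericytes, and with the replicate block described for the second question 1 gene (S100a8, carried by neutrophils and monocytes) rose. Yet 9 of 9 neutrophil and monocyte markers tested had a log2 fold change above 0 in pericytes (median 3.7). So did 9 of 10 microglia markers (median 1.58), beside a median of -0.04 over all genes. The medians of the other lists lay between 0.137 (fibroblast markers) and 0.663 (astrocyte markers). The part of these cells in the results that follow was not tested.

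Sequence upstream of the start site is shown for 3 genes whose levels went different ways: Acta2, the contractile gene, with the stretches that resemble a CArG box (the site of serum response factor, which drives smooth muscle genes) in capitals, Rgs5, the pericyte marker that moved against it between replicates, and Kcnj8, whose mean was highest outside pericytes. Each is the 250 bases before the RefSeq start site, 5′ to 3′ on the gene's strand (GRCm38.p6).
Acta2, chr19:34255374-34255623, minus strand: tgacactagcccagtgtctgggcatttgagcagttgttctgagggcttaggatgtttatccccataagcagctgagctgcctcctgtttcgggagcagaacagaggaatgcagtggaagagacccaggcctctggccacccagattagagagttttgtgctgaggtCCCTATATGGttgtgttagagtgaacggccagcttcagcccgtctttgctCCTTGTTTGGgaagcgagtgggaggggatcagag
Rgs5, chr1:169655251-169655500, plus strand: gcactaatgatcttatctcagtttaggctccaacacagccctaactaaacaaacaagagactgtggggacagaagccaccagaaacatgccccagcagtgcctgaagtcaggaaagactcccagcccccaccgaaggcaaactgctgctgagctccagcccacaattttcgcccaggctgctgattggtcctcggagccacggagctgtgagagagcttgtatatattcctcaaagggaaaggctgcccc
Kcnj8, chr6:142571615-142571864, minus strand: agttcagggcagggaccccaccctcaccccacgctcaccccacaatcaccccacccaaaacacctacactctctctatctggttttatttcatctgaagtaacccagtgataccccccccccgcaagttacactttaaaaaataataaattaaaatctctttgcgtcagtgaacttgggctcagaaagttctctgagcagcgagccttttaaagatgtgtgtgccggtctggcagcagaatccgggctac
A CArG box was searched with at most 1 departure in its inner 6 bases, and since it reads the same on both strands, a match covers both. Acta2 held 2 matches, from 84 to 75 and from 34 to 25 bases before the start site, neither of them without a departure. The other 7 genes with an entry (Rgs5, Kcnj8, Abcc9, Anpep, Vtn, Cspg4 and Des) held none, and 8.59% of 32851 promoters did (1.47% without a departure). Entries for Higd1b and Tagln were not used here. These are letters in a window and not measured binding.

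The first question was how far the genes mark the sorted pericytes. In the contralateral hemisphere 8 of the 10 genes were higher in pericytes than in each of the 3 other cell types (limma, Benjamini-Hochberg adjusted p at most 0.05 in all 3 contrasts of 1 fit over 48 libraries), and 8 of 10 in the ipsilateral hemisphere, against 6.51% and 4.91% of the 15003 genes tested. Kcnj8 and Abcc9 were the 2 that did not pass in either hemisphere. Cspg4 is among the 8 in both hemispheres, and as a gated marker its pass follows from the sort. The call of Anpep was lost in the contralateral hemisphere when any of replicates 1, 3, 4, 5 or 6 was left out or low values were not filtered, and in both hemispheres with replicates 1 to 4 alone or a pseudocount of 0.1. It was also lost in the contralateral hemisphere with replicates 1, 5 and 6 alone, and Anpep was not tested with a minimum mean of 50. The call of Vtn was lost in the ipsilateral hemisphere without replicate 1.

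**Figure D1:**
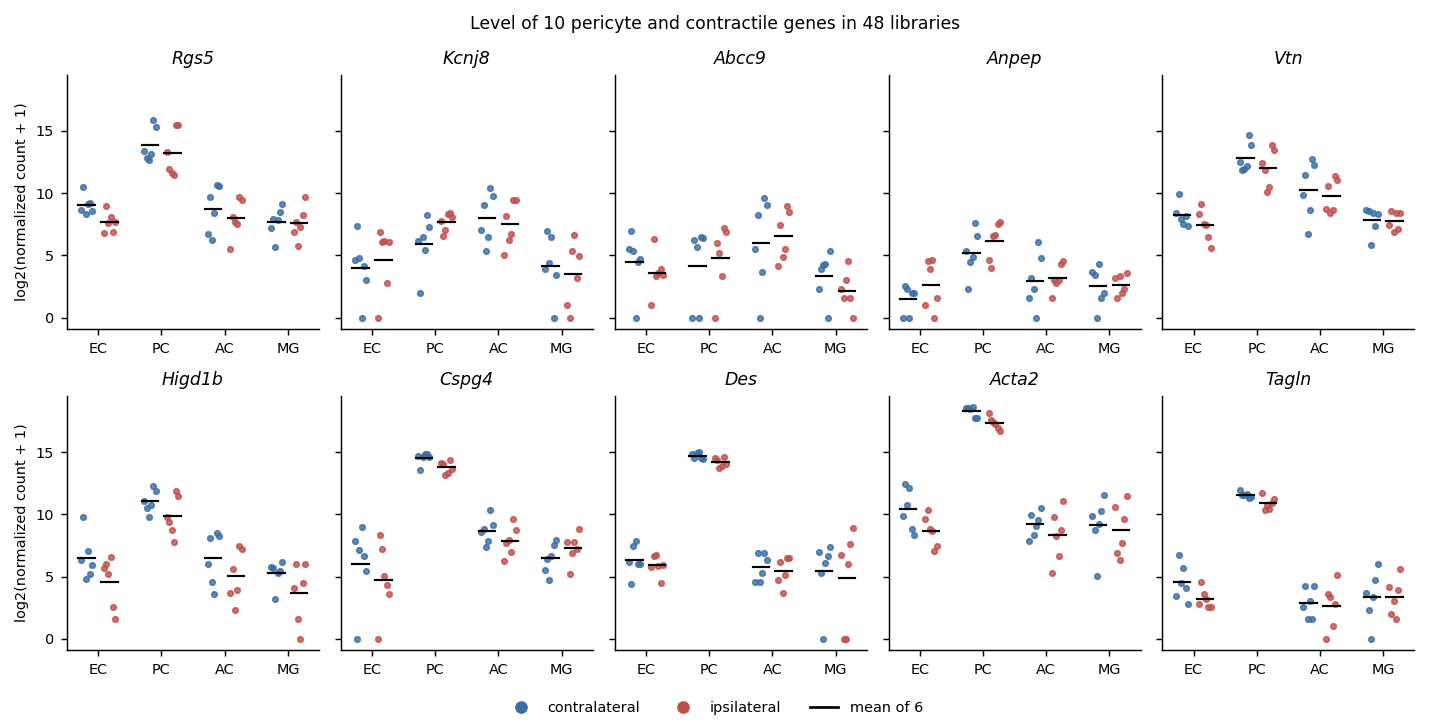
Level of each gene as log2(normalized count + 1) on the y axis in the 8 groups on the x axis, with 1 point per library (blue contralateral, red ipsilateral) and a bar at the mean of 6. Acta2, Tagln, Des and Cspg4 of pericytes lie clear of every other library, whereas Kcnj8 and Abcc9 reach their highest points in astrocytes.

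Acta2 encodes smooth muscle α-actin (ENSMUSG00000035783, chr19:34241090-34255336, minus strand). Positions of genes are given on GRCm38. The normalized counts of Acta2 in contralateral pericytes were 219016 at the lowest, 365103 at the median and 398344 at the highest, and in ipsilateral pericytes 108085, 164880 and 296422. No library of the 3 other cell types passed 5505, so the ranges did not meet, and the contralateral mean stood 147-fold above the next cell type, endothelial cells (2227 ± 2197, SD, n = 6). Acta2 alone took 1.81% to 3.18% of all normalized counts in contralateral and 1.02% to 2.55% in ipsilateral pericyte libraries. Reads from its paralogs Actg2 and Acta1 that fit more than 1 place were not counted by the authors, so its level is uncertain to that extent.

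Tagln encodes transgelin, an actin-binding protein of smooth muscle (ENSMUSG00000032085, chr9:45929619-45936058, minus strand). In contralateral pericytes it ranged from 2530 over a median of 2976.5 to 4066 normalized counts, and in ipsilateral pericytes from 1267 over 1851 to 3363, while no other library passed 106. Its level is the least certain of the 10: 1349 of its 1988 exonic bases (67.9%) also lie in exons of Pcsk7 or Gm48529, both on the opposite strand, and reads that overlapped several genes were discarded by the authors.

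Des encodes desmin, the intermediate filament of muscle and mural cells (ENSMUSG00000026208, chr1:75360329-75368579, plus strand). It ranged from 22059 over 26618.5 to 32844 in contralateral and from 13587 over 18941 to 25278 in ipsilateral pericytes, with no other library above 480. The contralateral mean was 263-fold above that of the next cell type, the widest margin of the 10 genes in that hemisphere. Of its exonic bases 5.86% are shared with an antisense gene.

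Cspg4 encodes the NG2 proteoglycan of the gate (ENSMUSG00000032911, chr9:56865033-56899870, plus strand). It ranged from 12206 over 25059 to 29322 in contralateral and from 9088 over 14791 to 20777 in ipsilateral pericytes, and no other library passed 1275. As a gated marker it checks the sort and is no result between cell types.

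Rgs5 encodes a regulator of G-protein signaling (ENSMUSG00000026678, chr1:169655501-169695813, plus strand). It ranged from 6361 over a median of 9964 to 59320 in contralateral and from 2828 over 6940.5 to 45013 in ipsilateral pericytes. Its highest library outside pericytes reached 1656 (an astrocyte library), so the groups did not overlap, but the pericyte libraries themselves spanned a wide range.

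Higd1b, a gene of the hypoxia-inducible domain family (ENSMUSG00000020928, chr11:102835849-102838040, plus strand), ranged from 905 over 1947.5 to 5017 in contralateral and from 222 over 782 to 3649 in ipsilateral pericytes. The ranges just cleared the other cell types, whose highest contralateral library, endothelial replicate 2, held 889. Vtn, which encodes the matrix protein vitronectin (ENSMUSG00000017344, chr11:78499120-78502324, plus strand), ranged from 3737 over 5335 to 26311 and from 1096 over 4568 to 15077. Unlike the former it overlapped with astrocytes, whose libraries reached 6883 in the contralateral and 2621 in the ipsilateral hemisphere.

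Anpep encodes aminopeptidase N (CD13) (ENSMUSG00000039062, chr7:79821803-79848210, minus strand). At 4 to 194 normalized counts (median 34.5) in contralateral and 15 to 206 (median 96.5) in ipsilateral pericytes it was a low gene, and its ranges overlapped with those of the next cell type in both hemispheres. In the order of levels as a whole, pericytes overlapped with the cell type next to them in 8 of 20 gene and hemisphere combinations, those of Kcnj8, Abcc9, Anpep and Vtn. Neighbours in the order that did not include pericytes overlapped in 36 of 36.

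Per kilobase of merged exons, which allows levels of different genes to be compared, contralateral pericytes held 148677 ± 37720 normalized counts of Acta2 (SD, n = 6), 7224 ± 1275 of Des, 4915 ± 4922 of Rgs5, 4880 ± 4465 of Vtn, 2966 ± 1846 of Higd1b, 2024 ± 522.4 of Cspg4 and 1542 ± 274.7 of Tagln. The 3 low genes followed with 43.96 ± 42.34 for Kcnj8, 15.4 ± 17.12 for Anpep and 5.952 ± 4.895 for Abcc9. Acta2 stood apart from all others on this scale. Rgs5 and Vtn could not be ranked, since their SDs were about as large as their means, nor could Higd1b, Cspg4 and Tagln be ranked against them. Tagln is an exception to the comparison. Its length includes the 67.9% of exonic bases shared with other genes, where reads were discarded. Its value per kilobase may thus be too low, and its place among these genes is uncertain.

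Kcnj8 and Abcc9 encode the Kir6.1 pore and the SUR2 subunit of an ATP-sensitive potassium channel of mural cells, and lie beside each other (ENSMUSG00000030247, chr6:142564837-142571614, minus strand, and ENSMUSG00000030249, chr6:142587862-142702315, minus strand) with 16247 bases and no other gene of the table between them. Their means were highest in astrocytes in both hemispheres, but the median of ipsilateral Kcnj8 was higher in pericytes. Kcnj8 ranged from 41 over 326.5 to 1378 in contralateral and from 32 over 199 to 709 in ipsilateral astrocytes, against 3 over 81 to 305 and 96 over 240 to 348 in pericytes. Abcc9 ranged from 0 over 172.5 to 793 in contralateral and from 17 over 108 to 502 in ipsilateral astrocytes, against 0 over 62 to 90 and 0 over 50 to 148 in pericytes. These differences did not pass the test: contralateral pericytes against astrocytes gave a log2 difference of -2.07 (SE 1.22, limma adjusted p = 0.167) for Kcnj8 and -1.88 (SE 1.4, adjusted p = 0.279) for Abcc9. Kcnj8 was higher in ipsilateral pericytes than in microglia (log2 difference 4.17, adjusted p = 0.00496). The other 2 subunit genes of such channels, Kcnj11 and Abcc8, reached 54 and 29 normalized counts in pericytes and were too low to be tested.

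The astrocyte libraries with much Kcnj8 also held other pericyte genes. Replicates 5 and 6 of the astrocytes lay above replicates 1 to 4 in both hemispheres for 7 of the 10 genes (Rgs5, Kcnj8, Abcc9, Anpep, Vtn, Higd1b and Cspg4), as did 10.9% of the 15264 genes tested there. Kcnj8 amounted to 25.5% to 123% of Rgs5 in contralateral and 35.3% to 108% in ipsilateral astrocytes, but to 0.0405% to 1.41% and 0.587% to 11% in pericytes. Vtn amounted to 120% to 855% of Rgs5 in contralateral and 161% to 942% in ipsilateral astrocytes, and to 36.2% to 60.6% and 25.5% to 95.6% in pericytes. Neither ratio overlapped between the cell types in either hemisphere. Both were chosen after their values were seen and are given as a description, with no test. How much of the astrocyte signal comes from mural cells in the sort was not tested.

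**Figure D2:**
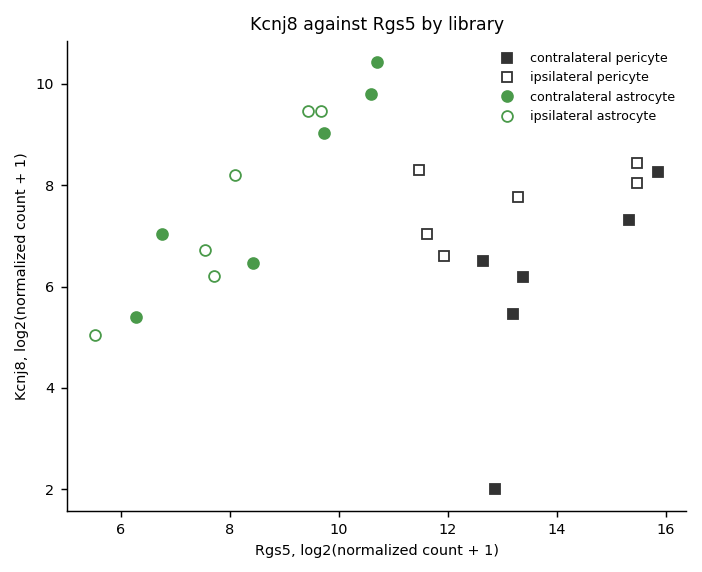
Kcnj8 (y axis) against Rgs5 (x axis), both as log2(normalized count + 1), in the 12 astrocyte libraries (green circles) and the 12 pericyte libraries (black squares), filled for contralateral and open for ipsilateral. The astrocyte libraries form a steep band at low Rgs5, and the pericyte libraries lie to its right with no Kcnj8 value above 348 normalized counts.

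The second question was how these genes changed with ischemia. In pericytes 0 of the 10 genes were regulated (limma, adjusted p at most 0.05, a fold change of at least 1.5 in either direction and over 10 normalized counts in each of the 6 libraries on 1 side), while 1.02% of 13597 genes were. With the replicate number, which was taken to mark the same pool of mice, as a block, the genes called rose from 139 to 226. The 10 genes again gave 0, as they did by adjusted p alone without the block. Abcc9 had over 10 normalized counts in each library on neither side, so the full rule could not call it. At an unadjusted p under 0.05 there were 4 of 10 (Cspg4, Des, Acta2 and Tagln, all lower in the ipsilateral hemisphere), where 15.4% of all genes reached it. With the block there were 8 of 10, with Rgs5, Vtn and Higd1b (lower) and Kcnj8 (higher) in addition, where 18.5% of all genes reached it. The log2 fold changes of 7 of the 10 were below 0, with a median of -0.67, beside a median of -0.04 and 52.5% below 0 over all genes tested.

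**Figure D3:**
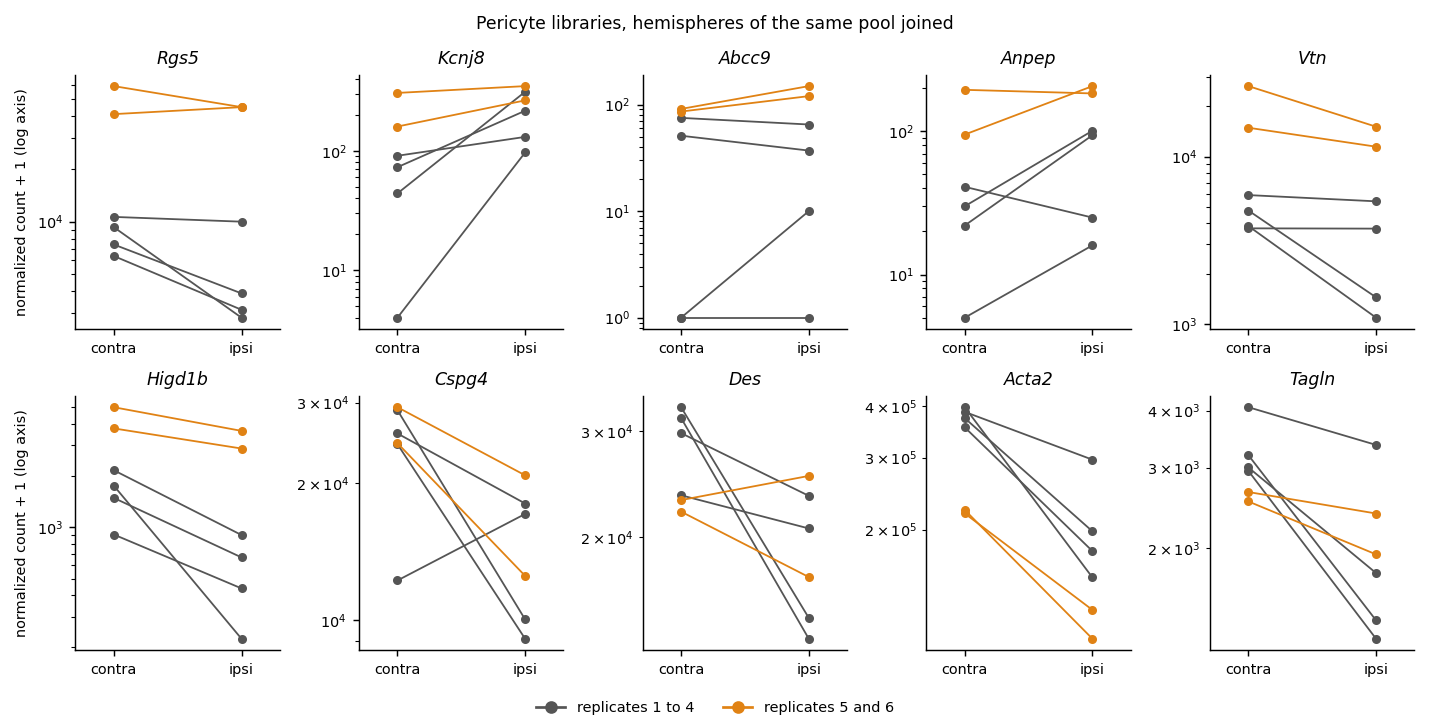
Normalized count + 1 of each gene on a log axis in contralateral and ipsilateral pericytes, with a line for each of the 6 pools (grey replicates 1 to 4, orange replicates 5 and 6). Acta2, Tagln, Vtn and Higd1b slope down in 6 of 6 pools and Kcnj8 slopes up in 6 of 6.

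Vtn, Higd1b, Acta2 and Tagln were lower in the ipsilateral hemisphere in 6 of 6 pools (4 of 10 genes), and so were 6.86% of all genes tested. For Acta2 the mean was 326494 ± 82834 normalized counts (SD, n = 6) in contralateral and 176567 ± 67123 in ipsilateral pericytes, a log2 fold change of -0.92 (SE 0.31, limma adjusted p = 0.167, and 0.0604 with the block). The differences of the single pools ran from -1.38 to -0.39. The 2 groups overlapped, since ipsilateral replicate 1 lay above the lowest contralateral library of 219016.

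Tagln went from 3066 ± 546.2 to 2017 ± 770.7, a log2 fold change of -0.67 (SE 0.22, limma adjusted p = 0.162), and Des from 27119 ± 4785 to 19148 ± 4748, a log2 fold change of -0.52 (SE 0.19, adjusted p = 0.21). Des was lower in 5 of 6 pools and higher in replicate 5. Cspg4 went from 24143 ± 6233 to 14581 ± 4729 with a log2 fold change of -0.74 (SE 0.26, adjusted p = 0.185). It was higher only in replicate 2 among the 6 pools, the pool whose contralateral library was the lowest. With the block the limma adjusted p was 0.1017 for Tagln, 0.2097 for Des and 0.1665 for Cspg4.

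Higd1b had the most negative estimate of the 10, -1.21 (SE 0.63, limma adjusted p = 0.381, and 0.0905 with the block), with pools between -2.97 and -0.39. Vtn followed with -0.81 (SE 0.67, adjusted p = 0.606), its pools between -1.81 and -0.01. Rgs5 was at -0.67 (SE 0.81, adjusted p = 0.737), lower in 5 of 6 pools. With the block the SE was 0.26 for Vtn and 0.23 for Rgs5, with limma adjusted p = 0.1535 and 0.1755. For these 3 the spread between replicates of 1 hemisphere was wider than the difference between hemispheres, as the contralateral Rgs5 of 22343 ± 22375 shows. The block takes out the part of that spread that both hemispheres of a pool share.

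Kcnj8 went the other way. It was higher in the ipsilateral hemisphere in 6 of 6 pools, as were 4.55% of all genes tested, with 112 ± 107.9 normalized counts against 227.7 ± 99.92 and pools between 0.19 and 4.6 on the log2 scale. Its log2 fold change of 1.74 (SE 0.84) did not pass the test (limma adjusted p = 0.339, and 0.1788 with the block). Contralateral replicate 2 held 3 normalized counts. Without that pool the value was 1.17. Anpep, at 0.98 (SE 0.91, adjusted p = 0.65, and 0.4023 with the block), was higher in 4 of 6 pools. Abcc9, at 0.64 (SE 1.55, adjusted p = 0.88, and 0.6787 with the block), was higher in 3 of 6. It had 2 contralateral libraries and 1 ipsilateral library at 0.

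Genes of the same systems that lie outside the 10 were described from lists of pericyte and contractile genes. These lists were chosen with earlier results of these data known, so their shares beside those of all genes are a description and no test. Of 20 further genes listed with the smooth muscle contractile apparatus, 6 fell in ipsilateral pericytes and 0 rose, where 1.02% of all genes were regulated. The log2 fold changes of all 20 were below 0 with a median of -0.9, where 52.5% of all genes lay below 0. The list, called the contractile list below, also holds regulators and calcium-handling and matrix genes of smooth muscle. The 6 were Myl9 (myosin regulatory light chain), Mylk (the kinase that phosphorylates it), Tpm1 (tropomyosin), Lmod1 (leiomodin, an actin nucleator), Pln (phospholamban, which holds back the calcium pump) and Tinagl1, a matrix protein and not a part of the contractile filament. Their calls rested on the whole set of libraries: the list gave 9 calls with the block, but 0 without replicate 3, 4, 5 or 6, 3 without replicate 2, and 0 with replicates 1 to 4 or with replicates 1, 5 and 6 alone. The median over the list stayed at -0.72 or below in each of these settings.

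Myl9, the most abundant of the list, ranged from 104710 over 116642 to 171005 normalized counts in contralateral and from 43637 over 53015.5 to 71624 in ipsilateral pericytes. The groups did not overlap. It fell by 1.19 on the log2 scale (SE 0.2, limma adjusted p = 0.0166, and 0.0284 with the block). Pln fell by 1.22 (SE 0.24, adjusted p = 0.0289), Mylk by 0.96 (SE 0.2, adjusted p = 0.0361), and Tpm1 by 0.93 (SE 0.19, adjusted p = 0.0374) in limma. Lmod1 fell by 0.73 and Tinagl1 by 1.09 (limma adjusted p = 0.0363 and 0.0496), and the call of Lmod1 was lost with the block (adjusted p = 0.0502). Tpm2, the next most abundant gene, was at -0.97 (SE 0.29, adjusted p = 0.131) and was called with the block (adjusted p = 0.0261).

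**Figure D4:**
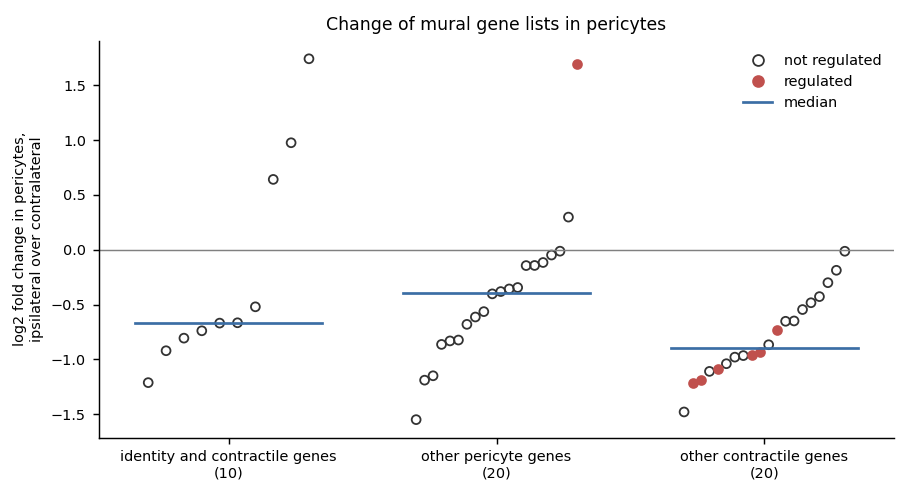
Log2 fold change in pericytes (y axis, ipsilateral over contralateral) of the 10 genes, 20 other pericyte genes and 20 other contractile genes (x axis), each gene a circle, filled red where regulated, with a blue line at the median. The medians are -0.67, -0.39 and -0.9, and the filled circles below 0 belong to the contractile list.

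Of 20 other pericyte genes, 1 rose and 0 fell, with a median of -0.39. The gene that rose was Ifitm1, an interferon-induced membrane protein, from 929.8 ± 399.5 to 2847 ± 853 normalized counts (log2 fold change 1.69, limma adjusted p = 0.0188), higher in 6 of 6 pools. Its adjusted p was 0.0505 with the block, and the 1 call of the list was then of Slc19a1, a folate carrier, which fell by 1.19 (adjusted p = 0.0344). Mcam (CD146) and Pdgfrb (the PDGF receptor of the gate), the most abundant of the list, had log2 fold changes of -0.82 (SE 0.2, adjusted p = 0.063) and -0.14 (SE 0.42, adjusted p = 0.901). Pdgfrb, a gated marker like Cspg4, thus stood closer to 0 than Acta2, a difference between genes that was not tested.

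Among the other actins Actb was at -0.1 (SE 0.24, limma adjusted p = 0.876) and Actg1 at 0.18 (SE 0.18, adjusted p = 0.688) in pericytes, and 0 of the 3 tested were regulated. Of the 15 other RGS genes 10 were tested in pericytes and 0 were regulated. In EC, AC and MG 0 genes of the contractile list were regulated, and with the block 1 (Myl9) fell in EC and 1 (Myl9) in AC. The median log2 fold change of the contractile list was -0.96 in EC (17 of 19 tested below 0), -0.46 in AC (16 of 18) and 0.13 in MG (7 of 18), beside -0.03, -0.06 and -0.18 over all genes, so that the value in EC was as low as that in pericytes. Ifitm1 also rose in microglia. Rgs4, the most abundant RGS gene of pericytes, was at -0.87 (SE 0.39, adjusted p = 0.299) and Rgs2 at 1.26 (SE 0.41, adjusted p = 0.153).

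Within the pericyte libraries the 10 genes did not vary as one block. Replicates 5 and 6 lay above replicates 1 to 4 in both hemispheres for Rgs5, Abcc9, Anpep, Vtn and Higd1b (5 of 10, with 5.67% of 13597 genes) and below them for Acta2 (1 of 10, with 3.93%). The mean of Rgs5 in replicates 5 and 6 was 5.96 times that of replicates 1 to 4 in the contralateral and 9.07 times in the ipsilateral hemisphere, whereas that of Acta2 was 0.583 and 0.571 times. The ratio of Acta2 to Rgs5 counts thereby ran from 3.69 to 55.9 in contralateral and from 2.4 to 56.4 in ipsilateral libraries. Replicates 5 and 6 also held the least microglia marker RNA in both hemispheres and the least neutrophil and monocyte marker RNA in the ipsilateral one. The labels give no reason for the 2 sets, and the part of cell makeup in them was not tested.

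Since the libraries fell into these 2 sets, correlations between the genes are given first within the 8 pericyte libraries of replicates 1 to 4. Each hemisphere's mean was removed. Rgs5 and Acta2, which went opposite ways between the sets, varied in the same direction within replicates 1 to 4 (Pearson r = 0.957, exact permutation p = 0.00347, and Spearman rho = 0.976, exact permutation p = 0.00694), with r = 0.916 when the 2 libraries farthest in Rgs5 were left out. Cspg4 and Des gave r = 0.937 (exact permutation p = 0.00347) and rho = 0.929 (exact permutation p = 0.00521), with r = 0.934 without the farthest 2. Over the 45 pairs both had a Benjamini-Hochberg adjusted permutation p of 0.0781 for r and 0.104 for rho, so that neither passed. With the 576 permutations within hemispheres the smallest p is 0.00174, and 45 times that is 0.0781, so that a single pair could not pass at this size. In all, 9 of 45 pairs had an unadjusted p under 0.05. The 8 libraries are the 2 hemispheres of replicates 1 to 4, so that each pool enters with 2 libraries. The permutation treated these as independent, and its p-values may be too small. The other 2 pools are too few for a value of their own. Over all 12 pericyte libraries, where the difference between the 2 sets enters, Rgs5 and Acta2 gave r = -0.672. There 5 of 45 pairs passed by r after adjustment, under the same permutation. They were Rgs5 with Vtn (0.958) and Higd1b (0.956), Vtn with Higd1b (0.937), Kcnj8 with Anpep (0.827) and Anpep with Acta2 (-0.793).

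In the other cell types the means of these genes were below those in pericytes, except for Kcnj8 and Abcc9 in astrocytes. Of the 9 genes tested in each cell type none was regulated (0 of 9 in EC, AC and MG alike). Among all genes limma called 0.491%, 0.341% and 10.6% there (52 genes in astrocytes, and 242 with the block). At an unadjusted p under 0.05 there were 2 in endothelial cells (11.9% of all genes), 0 in astrocytes (9.28%) and 0 in microglia (28.0%), and with the block 4 (Rgs5, Vtn, Higd1b and Acta2; 13.6%), 3 (Higd1b, Cspg4 and Acta2; 17.6%) and 0 (30%). In endothelial cells Rgs5 had a log2 fold change of -1.4 (SE 0.43, adjusted p = 0.176, and 0.0789 with the block) and Acta2 of -1.73 (SE 0.73, adjusted p = 0.357, and 0.0789 with the block). Rgs5 ranged from 322 over 484 to 1481 normalized counts in contralateral and from 111 over 198 to 492 in ipsilateral endothelial cells, lower in 6 of 6 pools as Vtn, Acta2 and Tagln were (4 of 9 genes, with 5.19% of the 13242 tested). These levels are a small part of those in pericytes, and how much of them is mural RNA in the endothelial sort was not tested.

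**Figure D5:**
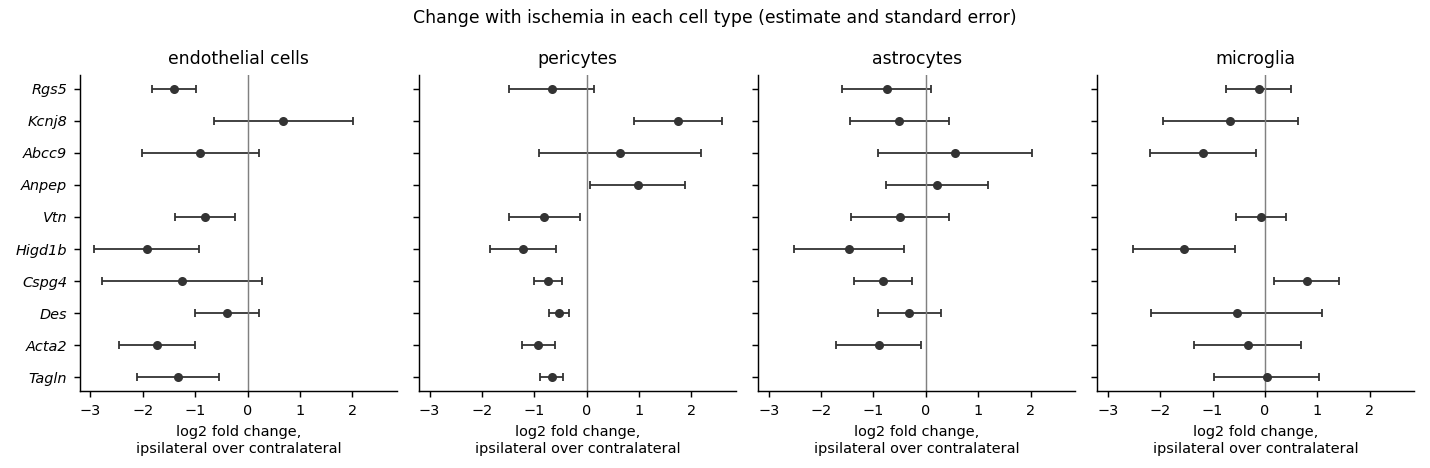
Log2 fold change of ipsilateral over contralateral libraries (x axis) for each gene (y axis) in the 4 cell types, with limma's standard error as the bar. The smallest errors are those of Cspg4, Des, Acta2 and Tagln in pericytes (0.19 to 0.31), and genes under the minimum level have no point.

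Whether the change in pericytes differed from that in another cell type was tested directly, as the interaction in the fit of 48 libraries. None of the 10 genes passed in any of the 30 contrasts (limma, lowest adjusted p = 0.611, for Kcnj8 against microglia), 0 reached an unadjusted p under 0.05, and 0.733% of 15003 genes passed in at least 1. For Acta2 the pericyte change was 0.81 (SE 1.21) less negative than the endothelial one on the log2 scale, (limma adjusted p = 0.923).

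The genes most like 3 of the 10 in their pattern were sought over the 8 group means, as a description. Acta2 was closest to Myl9 (Pearson r = 0.998), Myocd (0.997), which encodes the cofactor myocardin of smooth muscle genes, and Map3k7cl (0.993). Rgs5 was closest to Ogn (0.996), Alx1 (0.996) and Myl9 (0.995). Kcnj8 was closest to Bdh2 (0.985), Clstn3 (0.977) and Flywch2 (0.975), none of them a gene of the lists above. Among the 10 themselves Acta2 and Tagln had r = 0.997 and Kcnj8 and Abcc9 0.841, while Abcc9 and Tagln had -0.0356.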

How the data were processed

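RNA of sorted NVU cells was amplified with an unstranded SMART-Seq HT kit and sequenced as single reads by the authors, who trimmed with Trimmomatic 0.38, aligned to mm10 (GRCm38) with STAR 2.6.1d and counted reads per gene with featureCounts 1.6.3, leaving out reads that fit several places or genes. The deposited values are scores: counts divided by DESeq2 1.18.1 size factors and rounded to whole numbers by the authors, so no count model was used. Columns followed the sample descriptions (48 libraries, 6 per group), and 0 per-sample columns were left out.

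Values were tested as log2(value + 1) with limma 3.58.1 (R 4.3.3), two-sided, with a trend, keeping genes whose mean reached 10, within each cell type (12 libraries) and over 48 libraries for cell types and interactions. The fits were tested on simulated data. A fold change on this scale understates that of low genes. Reads behind each value were estimated from the steps of low values. The 10 genes and the lists were chosen with earlier results of these data known. Named genes were the 10, the regulated and the 2 most abundant genes of each list, the highest gene of a marker list where given, and the 3 closest to Rgs5, Kcnj8 and Acta2. Exon lengths and overlaps are from GENCODE M21 and promoters from RefSeq (GRCm38.p6, 8 of 10 genes matched). Same-numbered hemispheres come from the same mice: their deviations correlated at a mean r of 0.227, 0.227, 0.38 and 0.135 in EC, PC, AC and MG, and those of other numbers at -0.0387, -0.0449, -0.0759 and -0.0258. Alternatives were other pseudocounts, minimum levels and scalings, the replicate block, the joint fit, the titles' cell types and fewer replicates. Intervals and limits from reads cover counting error only.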

Additional observations from a re-analysis of the deposited data

Results flagged for a closer look

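Dixon's test was applied at its 95% critical value to 80 groups of 6 libraries. In 13 of the 80 groups the highest or lowest library stood apart from the others. The rate of about 5% by chance holds for independent groups of normally distributed values. The test used normalized counts without logarithms, and the groups of different genes share libraries. The 13 groups therefore cannot be read against that rate and are given as a description. Contralateral endothelial replicate 2 was the highest for Rgs5 (1481 normalized counts, next 588), Kcnj8 (161, next 26), Abcc9 (127, next 45), Vtn (966, next 342) and Higd1b (889, next 134). Ipsilateral endothelial replicate 2 was the highest for Abcc9 (80, next 14) and Tagln (22, next 11). In pericytes, contralateral replicate 2 was the lowest for Cspg4 (12206, next 24325). Contralateral astrocyte replicate 5 was the highest for Cspg4 (1275, next 561) and ipsilateral astrocyte replicate 6 for Tagln (34, next 11). Ipsilateral microglia replicate 6 was the highest for Rgs5 (831, next 296) and Tagln (49, next 17), and replicate 4 for Abcc9 (22, next 7). Why these libraries stood apart was not tested.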

How the results depend on the processing

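None of the 10 genes was regulated in any cell type under any alternative other than the cell types of the sample titles, which gave 7 in pericytes and 9 in microglia, 0 highest in ipsilateral pericytes and 9 with an interaction. The replicate block changed none of the calls of the 10 genes. It moved the genes called overall to 226 in pericytes and 242 in astrocytes. In endothelial cells 36 genes were called with no filter on low values, 235 in the joint fit, 11 with replicates 1 to 4, 0 with replicates 1, 5 and 6, and 10 to 84 when 1 replicate was left out. In pericytes the counts were 84, 288, 31, 0 and 11 to 112, and 6219 by the titles. In astrocytes they were 34 with a pseudocount of 0.1, 32 with a mean of at least 50, 89 in the joint fit, 2 with replicates 1, 5 and 6, and 12 to 61 with 1 left out. In microglia they were 827 in the joint fit, 6179 by the titles, 787 with replicates 1 to 4, 371 with replicates 1, 5 and 6, and 557 to 1909 with 1 left out. The contractile list gave 1 lower gene in the joint fit, 20 by the titles, 0 with replicates 1 to 4, 0 with replicates 1, 5 and 6, and 0 to 6 with 1 left out. Correlated pairs passing over all 12 pericyte libraries numbered 5, 0 with replicates 1 to 4, and 3 to 5 with 1 left out. Of 613 alternative log2 fold changes of the 10 genes, 576 kept direction and side of the threshold, 9 passed it (by the titles) and 28 changed sign. By the titles these were Kcnj8 (-2.43), Abcc9 (-1.97) and Anpep (-2.54) in pericytes and Rgs5 (5.48), Kcnj8 (3.51), Abcc9 (1.43), Vtn (4.16), Higd1b (4.60), Des (8.78) and Acta2 (8.25) in microglia. With replicates 1, 5 and 6 they were Kcnj8 in endothelial cells (-0.97), Abcc9 (-0.86) and Anpep (-0.67) in astrocytes, and Kcnj8 (0.59), Des (0.73), Acta2 (0.01) and Tagln (-0.24) in microglia. A pseudocount of 10 turned Anpep in astrocytes (-0.12) and Tagln in microglia (-0.10). With 1 replicate left out the ranges crossed 0 for Kcnj8 (-0.41 to 1.75) and Cspg4 (-3.18 to 0.07) in endothelial cells, Abcc9 (-0.32 to 0.93) and Anpep (-0.34 to 0.31) in astrocytes, and Kcnj8 (-1.43 to 0.59), Vtn (-0.29 to 0.17), Des (-0.95 to 0.41) and Tagln (-0.56 to 0.39) in microglia. Apart from the titles, no sign changed in pericytes. The settings with replicates 1, 5 and 6 and those of the contractile list were chosen after seeing the data. The cause was not tested. A count of 0 in a pericyte library leaves up to 2.59 to 4.01 normalized counts undetected, which limits Abcc9, at 0 in 2 contralateral libraries and 1 ipsilateral library.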
